A study of Mus musculus with 6 samples.

Results

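The small leucine-rich proteoglycans (SLRPs) of adult mouse bone were examined at 3 skeletal sites. The group was chosen as a gene family, by name, with earlier results of these data known. It holds 10 genes, Bgn, Dcn, Aspn, Fmod, Lum, Prelp, Kera, Omd, Epyc and Ogn. They are 10 of the 18194 genes that the array names by a single symbol, and 21 of its 45101 probe sets read them. RNA came from mandible with the teeth in place, from calvaria without its sutures, and from ulna, with 2 arrays for each site. The animals were untreated, skeletally mature male mice of 24 to 26 g, written as Black CD57 in the study's methods, and all 3 groups were basal tissue with no transgene or allele. The methods divide the mice of this pilot into groups without tying them to arrays, so that whether the 2 arrays of a site came from separate mice is not stated, and the p-values rest on how far the 2 arrays differ, a spread that may be technical only. The number of arrays limits the precision.

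SLRPs are secreted proteins with a core of leucine-rich repeats that bind collagen fibrils and set their diameter and spacing. Many carry chains of chondroitin, dermatan or keratan sulphate, which are sulphated glycosaminoglycans, and several also bind growth factors of the TGF-beta and BMP family or hydroxyapatite. By sequence, Bgn (biglycan), Dcn (decorin) and Aspn (asporin) form class I, Fmod (fibromodulin), Lum (lumican), Prelp, Kera (keratocan) and Omd (osteomodulin, or osteoadherin) form class II, and Epyc (epiphycan) and Ogn (osteoglycin, or mimecan) belong to class III. The study asked whether bone of the skull and of the limb keeps its own pattern of expression in the adult, and glycosaminoglycan in the matrix was among the features it compared. Its main animals were rats, and the mice were a pilot for the arrays. It reported more polysulphated glycosaminoglycan in limb than in skull bone of rats, a measure of stained matrix and not of RNA. For RNA of rat bone, it listed Prelp, Omd and Ogn as higher in skull than in limb.

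Most of the family was higher in both skull bones than in ulna. In mandible 9 of the 10 genes were called higher than in ulna, beside 11.0% of all 12326 genes tested, 0 were called lower, beside 10.9%, and Epyc was not called. In calvaria 9 were called higher than in ulna, beside 8.36% of all genes, and 1, Kera, was called lower, beside 4.54%. Between mandible and calvaria the family split at 2 genes, with Kera higher in mandible (5.14% of all genes were) and Epyc lower in mandible (4.01% were), and the other 8 were not called. A call required an adjusted p under 0.05 (limma, Benjamini-Hochberg over 25233 probe sets) and a difference of at least 2-fold, and a gene was read by its tested probe set with the highest mean.

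The share of the family called higher in either skull bone than in ulna, 90.0%, was above that of all genes. In mandible against calvaria 1 gene was called in each direction. The family and the gene lists below were chosen with earlier results of these data known. Shares set beside those of all genes therefore describe them and test no excess. The median log2 difference of the 10 genes was 1.88 in mandible against ulna, beside -0.08 over all genes tested, and 2.19 in calvaria against ulna, beside -0.05. In mandible against calvaria it was -0.19, beside -0.09. Both skull sites were compared with the same 2 ulna arrays, so that their differences from ulna are not independent. At an unadjusted p under 0.05, limma found 9 of the genes higher and 0 lower in mandible than in ulna, 9 higher and 1 lower in calvaria than in ulna, and 2 higher and 4 lower in mandible than in calvaria. The share of all genes was not counted at this unadjusted cut. Such counts, here and below, therefore cannot be read as more or fewer than usual. In whole bone, a larger share of cells that express a gene and more of its RNA per cell cannot be told apart.

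Markers of other tissues also differed between the sites. Beside their counts, 11.0% of all genes were called higher in mandible than in ulna and 8.36% in calvaria. Skeletal muscle markers were high in mandible and ulna and low in calvaria, and the summed signal of 10 genes was 51027 to 51165 in mandible, 6621 to 6820 in calvaria and 57529 to 57822 in ulna. All 9 tooth markers tested were called higher in mandible than in ulna, and 6 of 7 epithelial markers were as well. The calls of Klk4 and Epcam among them depended on single arrays, and Epcam was log2 0.48 without ulna replicate 1. So did those counted below of Col9a1, Col10a1 and Thbs4 in mandible and of Crabp2 in calvaria against ulna. Osteoblast markers were called higher than in ulna in both mandible and calvaria for 6 of 6 genes tested. The median signal of an array lay between 30.6 and 33.6, and signals are given as deposited, with log2 differences taken after each array was divided by its median.

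To show the start sites of genes whose values the results turn on, promoter windows of 300 bases were read from RefSeq on the build GRCm38.p6, covering 250 bases before and 50 bases after the annotated start. A window was found for 8 of the 10 genes, Epyc having 2, and none for Dcn and Lum. The 5 printed here are Aspn, Omd and Ogn, which lie side by side and differed from ulna in the same direction at both skull sites, and Kera and Epyc, which lie side by side and went opposite ways between the skull sites. Capitals mark matches on either strand to TATAAA or to TGTGGT, the core that Runx factors recognise, and each line reads 5′ to 3′ on the gene's own strand.
Aspn, chr13:49544193-49544492, plus strand: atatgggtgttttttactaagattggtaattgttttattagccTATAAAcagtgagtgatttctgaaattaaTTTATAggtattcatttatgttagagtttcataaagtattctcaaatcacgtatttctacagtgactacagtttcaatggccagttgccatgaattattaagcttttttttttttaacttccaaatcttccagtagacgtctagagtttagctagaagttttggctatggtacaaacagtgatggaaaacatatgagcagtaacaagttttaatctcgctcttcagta
Omd, chr13:49582212-49582511, plus strand: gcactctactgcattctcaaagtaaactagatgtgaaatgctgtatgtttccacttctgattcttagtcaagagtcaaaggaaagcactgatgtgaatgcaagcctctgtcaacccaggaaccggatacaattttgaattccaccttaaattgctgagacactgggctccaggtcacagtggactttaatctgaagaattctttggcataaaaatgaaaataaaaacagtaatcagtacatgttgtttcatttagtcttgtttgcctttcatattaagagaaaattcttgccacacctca
Ogn, chr13:49607765-49608064, plus strand: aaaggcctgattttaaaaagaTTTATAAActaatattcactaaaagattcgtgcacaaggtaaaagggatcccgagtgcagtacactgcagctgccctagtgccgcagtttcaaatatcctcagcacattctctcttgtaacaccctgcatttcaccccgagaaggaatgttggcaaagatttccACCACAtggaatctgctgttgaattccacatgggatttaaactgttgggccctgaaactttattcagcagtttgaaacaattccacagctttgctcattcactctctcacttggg
Kera, chr10:97606955-97607254, plus strand: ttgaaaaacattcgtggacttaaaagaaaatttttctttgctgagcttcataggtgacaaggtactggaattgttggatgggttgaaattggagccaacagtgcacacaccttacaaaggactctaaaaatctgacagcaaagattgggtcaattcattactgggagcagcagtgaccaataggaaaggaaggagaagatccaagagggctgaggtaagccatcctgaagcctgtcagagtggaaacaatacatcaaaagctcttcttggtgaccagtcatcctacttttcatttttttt
Epyc, chr10:97643818-97644117, plus strand: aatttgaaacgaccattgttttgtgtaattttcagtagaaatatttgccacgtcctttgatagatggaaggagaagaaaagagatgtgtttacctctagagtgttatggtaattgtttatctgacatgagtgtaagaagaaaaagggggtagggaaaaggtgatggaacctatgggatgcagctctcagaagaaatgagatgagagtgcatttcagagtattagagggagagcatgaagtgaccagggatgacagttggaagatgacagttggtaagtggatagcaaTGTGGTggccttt

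The window of Ogn held both motifs, with TGTGGT on its reverse strand 65 bases before the start and 2 overlapping TATAAA matches, 1 on each strand, 229 and 227 bases before it. The window of Aspn held TATAAA 207 bases and, on the reverse strand, 178 bases before the start. The first window of Epyc held TGTGGT 37 bases after its start, while Omd, Kera and the second window of Epyc held neither. Over the 9 windows of the family, 2 held TATAAA and 2 held TGTGGT, beside 13.6% and 16.8% of all 32851 windows of that length. A search for TAATTA, a homeodomain core, found 0 of 9 windows (5.29% of all), and GGGCGG, the GC box, was found in 1, that of Bgn (35.7% of all). Such matches describe letters in a window, and are neither sites shown to be bound nor causes of the values that follow.

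All 3 class I genes were called higher than in ulna in both skull bones. Bgn encodes a proteoglycan that is abundant in bone matrix and whose loss lowers bone mass in mice. Its signal was 3410 and 3150 in mandible, 4387 and 4689 in calvaria, and 904.0 and 970.2 in ulna. All skull arrays lay above both ulna arrays, and calvaria lay above mandible with no overlap. Bgn was 3.23-fold higher in mandible than in ulna (log2 1.69 ± 0.07 SE, adjusted p = 3.37e-08, limma) and 4.59-fold higher in calvaria than in ulna (log2 2.20 ± 0.07, adjusted p = 2.84e-09). Mandible was 0.702 times calvaria (log2 -0.51, adjusted p = 0.000452), which passed the test but not the 2-fold limit. All 3 probe sets of Bgn gave these directions, with log2 differences of 1.58 to 1.99 in mandible against ulna, 2.03 to 2.46 in calvaria against ulna and -0.51 to -0.45 in mandible against calvaria.

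Dcn, the best known regulator of collagen fibril growth, had signals of 7191 and 6978 in mandible, 7935 and 8368 in calvaria, and 1710 and 1718 in ulna. The ulna arrays lay far below all 4 skull arrays, and the pairs of arrays were close. Dcn was 3.81-fold higher in mandible than in ulna (log2 1.93 ± 0.06, adjusted p = 2.56e-09) and 4.51-fold higher in calvaria than in ulna (log2 2.17 ± 0.06, adjusted p = 5.71e-10). The difference between the skull bones was small (log2 -0.24 in mandible against calvaria, adjusted p = 0.0107). A second probe set of Dcn was above the array median on only 1 array and was not tested, with signals of 24.2 and 11.4 in mandible, 40.0 and 20.4 in calvaria, and 8.11 and 8.65 in ulna.

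Aspn, which binds collagen and calcium and lacks a glycosaminoglycan chain, gave 1207 and 1170 in mandible, 1287 and 1074 in calvaria, and 327.5 and 277.8 in ulna. The skull bones overlapped each other and both lay above ulna. The log2 difference was 1.86 ± 0.11 in mandible against ulna (adjusted p = 2.4e-07) and 1.89 ± 0.11 in calvaria against ulna (adjusted p = 2.61e-07). Between mandible and calvaria it was -0.03, with a 95% interval of -0.26 to 0.21 and an adjusted p of 0.896. A second probe set of Aspn gave 2.06, 1.91 and 0.15 for the same 3 comparisons.

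**Figure D1:**
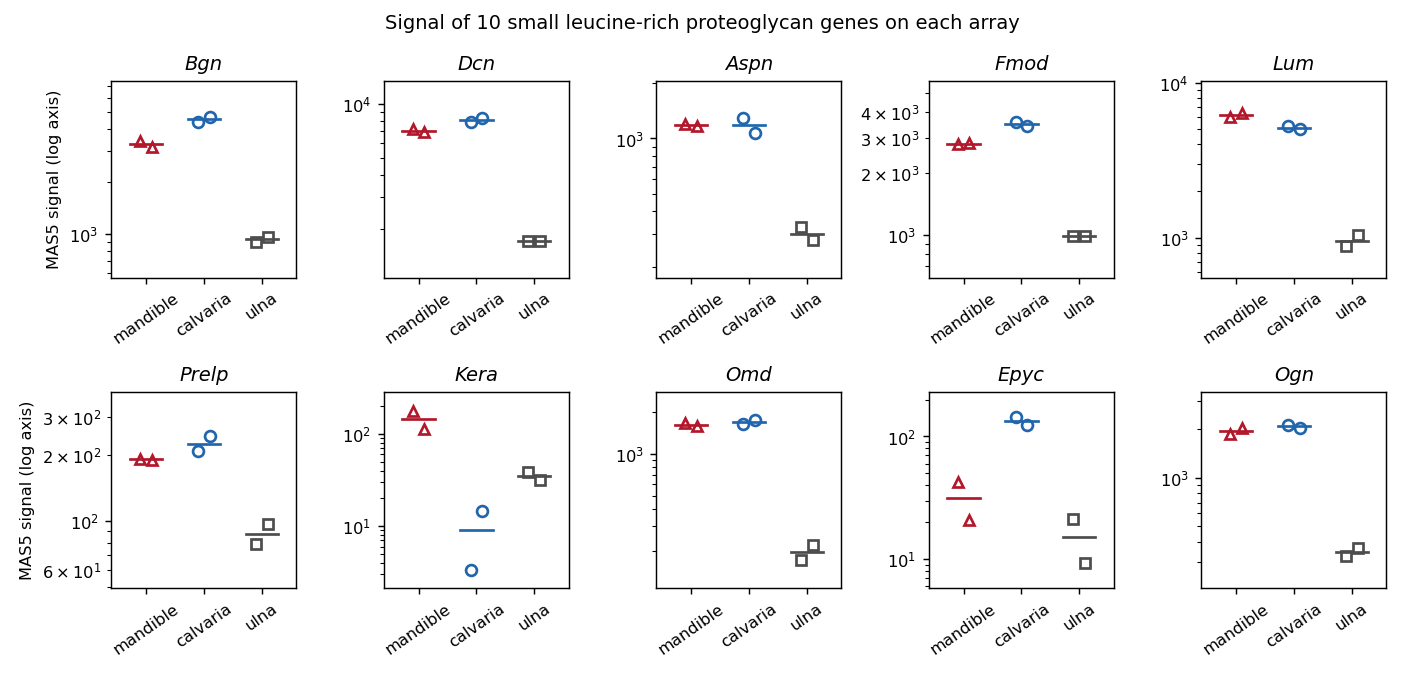
MAS5 signal of the highest probe set of each of the 10 SLRP genes on a log axis, 1 panel a gene, with an open symbol for each array and a line at the mean of the 2 arrays of mandible (triangles), calvaria (circles) and ulna (squares). Ulna lay below both skull bones in 8 panels, whereas Kera was lowest in calvaria and the lower mandible array of Epyc lay within the range of its ulna arrays.

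Among class II genes, Lum and Fmod are keratan sulphate proteoglycans that share a binding site on collagen type I. Lum had signals of 6048 and 6402 in mandible, 5262 and 5009 in calvaria, and 885.5 and 1037 in ulna. It was higher in every mandible array than in either calvaria array, and lowest in ulna. The differences from ulna were 5.99-fold in mandible (log2 2.58 ± 0.08, adjusted p = 5.11e-09) and 5.08-fold in calvaria (log2 2.34 ± 0.08, adjusted p = 5.3e-09). The difference between mandible and calvaria, log2 0.24, missed the threshold (adjusted p = 0.0636, 95% interval 0.06 to 0.42 before adjustment).

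Fmod gave 2777 and 2830 in mandible, 3561 and 3437 in calvaria, and 980.0 and 987.2 in ulna, with no overlap between any sites. The log2 difference from ulna was 1.39 ± 0.06 in mandible (adjusted p = 4.9e-08) and 1.75 ± 0.06 in calvaria (adjusted p = 5.91e-09). Mandible was lower than calvaria by less than 2-fold (log2 -0.36, adjusted p = 0.00182). With 6 probe sets, Fmod allowed the widest comparison of probes within a gene. They gave log2 differences of 0.87 to 1.73 in mandible against ulna and 1.75 to 2.14 in calvaria against ulna, and all 6 were lower in mandible than in calvaria (-0.94 to -0.33). The probe set with 0.87 passed the test in mandible against ulna (adjusted p = 0.000446) but was under 2-fold.

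Omd, a keratan sulphate proteoglycan of mineralised tissue that binds hydroxyapatite, was called higher than in ulna in both skull bones. Its signal was 1643 and 1581 in mandible, 1641 and 1735 in calvaria, and 172.4 and 219.2 in ulna. The skull bones lay together and apart from ulna. Omd was 7.64-fold higher in mandible than in ulna (log2 2.93 ± 0.11, adjusted p = 1.42e-08) and 8.23-fold higher in calvaria than in ulna (log2 3.04 ± 0.11, adjusted p = 7.33e-09). Mandible minus calvaria was log2 -0.11 (95% interval -0.35 to 0.14, adjusted p = 0.543).

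Prelp, a basic member that links basement membranes to collagen and also binds heparin, had the smallest called differences of the family. Its main probe set gave 192.4 and 191.5 in mandible, 209.1 and 244.1 in calvaria, and 79.2 and 96.9 in ulna, with both skull bones above ulna. The log2 difference was 1.01 ± 0.16 in mandible against ulna (adjusted p = 0.000397), just past the 2-fold limit, and 1.29 ± 0.16 in calvaria against ulna (adjusted p = 0.000123). The call in mandible was lost without ulna replicate 1, where the log2 difference was 0.86 (adjusted p = 0.0039). A second probe set of Prelp scattered widely, with 24.1 and 63.6 in mandible, 4.56 and 44.3 in calvaria, and 20.02 and 9.07 in ulna, and was called in no comparison. When both probe sets were averaged, Prelp was called neither in mandible (log2 1.22, adjusted p = 0.0788) nor in calvaria against ulna (log2 0.65, adjusted p = 0.369).

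Kera, best known as a keratan sulphate proteoglycan of the cornea, was the only gene of the 10 that was called lower in a skull bone than in ulna. Its signal was 178.7 and 113.2 in mandible, 3.39 and 14.6 in calvaria, and 38.4 and 31.9 in ulna. The 3 sites did not overlap, with mandible highest and calvaria lowest. The log2 difference was 1.91 ± 0.60 in mandible against ulna (adjusted p = 0.0254), -2.39 ± 0.60 in calvaria against ulna (adjusted p = 0.0123) and 4.30 ± 0.60 in mandible against calvaria (adjusted p = 0.000474). The calvaria signals lay below the median of their arrays, where a MAS5 signal is poorly determined, so that these differences are not exact. The ulna signals lay only just above their array medians (mean log2 0.18 against the median), so that calvaria against ulna compares low signals. Kera passed the filter on low signal through mandible and ulna. With an offset of 0.5 of the array median, the difference between mandible and calvaria was 2.65 (adjusted p = 1.52e-05).

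The calls of Kera against ulna rested on individual arrays. In mandible against ulna, the call was lost without mandible replicate 1 (adjusted p = 0.187), mandible replicate 2 (0.065), ulna replicate 1 (0.0672) or ulna replicate 2 (0.1). In calvaria against ulna it was lost without ulna replicate 1 (adjusted p = 0.0625). Without calvaria replicate 1, calvaria against ulna was log2 -1.34 and mandible against calvaria 3.24, and without calvaria replicate 2 they were -3.45 and 5.35. The call in mandible against calvaria held with any single array left out, while its size followed the calvaria array that was kept.

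In class III, Epyc, a dermatan sulphate proteoglycan known from epiphyseal cartilage, had its highest signal in calvaria. The signal was 42.5 and 20.8 in mandible, 144.9 and 124.6 in calvaria, and 21.3 and 9.21 in ulna. Both calvaria arrays lay above all others, and mandible and ulna overlapped. Epyc was higher in calvaria than in ulna (log2 3.19 ± 0.47, adjusted p = 0.000455), and with both ulna signals below the median of their arrays the size of this difference is not exact. It was lower in mandible than in calvaria (log2 -2.22 ± 0.47, adjusted p = 0.00625). The signal of mandible replicate 2 lay below the median of its array, so that this size is not exact either. In mandible against ulna the difference of Epyc was log2 0.97 (95% interval -0.07 to 2.01, adjusted p = 0.12).

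Epyc passed the filter on low signal through calvaria, where it was high, with calvaria and 1 mandible array above the array median. With the offset of 0.5, its log2 difference was 2.25 in calvaria against ulna (adjusted p = 4.03e-05) and -1.72 in mandible against calvaria (adjusted p = 0.000505). The difference between the skull bones lost its call without mandible replicate 2 (log2 -1.71, adjusted p = 0.0506) or calvaria replicate 1 (-2.11, adjusted p = 0.0692). Mandible against ulna gained a call without mandible replicate 2 (log2 1.47, adjusted p = 0.0493) or ulna replicate 1 (1.57, adjusted p = 0.0259).

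Ogn, a bone glycoprotein that influences collagen fibril formation, also differed from ulna at both skull sites. It gave 1875 and 2041 in mandible, 2146 and 2046 in calvaria, and 327.5 and 364.2 in ulna. Both skull bones were well above ulna, and calvaria lay above mandible by a narrow margin. Ogn was 5.22-fold higher in mandible than in ulna (log2 2.38 ± 0.08, adjusted p = 1.07e-08) and 5.75-fold higher in calvaria than in ulna (log2 2.52 ± 0.08, adjusted p = 3.85e-09). Mandible minus calvaria was log2 -0.14 (95% interval -0.33 to 0.05, adjusted p = 0.281). Its second probe set gave log2 differences of 2.85 in mandible against ulna, 2.74 in calvaria against ulna and 0.10 in mandible against calvaria.

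**Figure D2:**
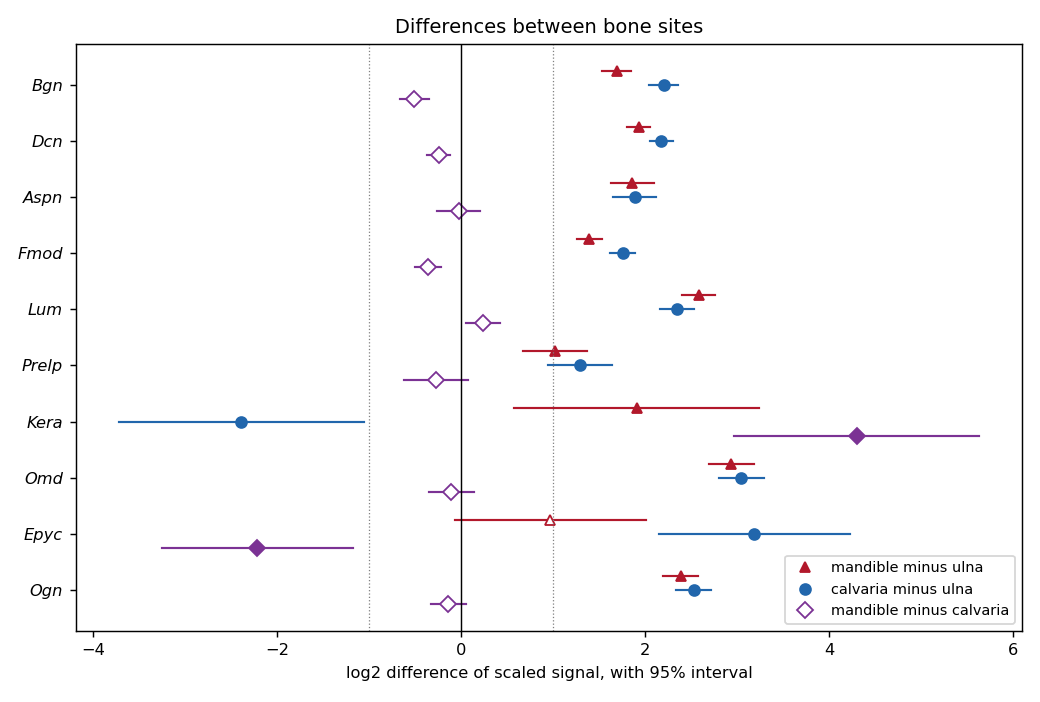
Log2 difference of scaled signal for each of the 10 SLRP genes, with bars for the 95% interval: mandible minus ulna (triangles), calvaria minus ulna (circles) and mandible minus calvaria (diamonds), filled where called and open where not, with dotted lines at 2-fold. The differences between the skull bones stay within 2-fold for 8 genes and are called for Kera (4.30) and Epyc (-2.22).

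**Figure D3:**
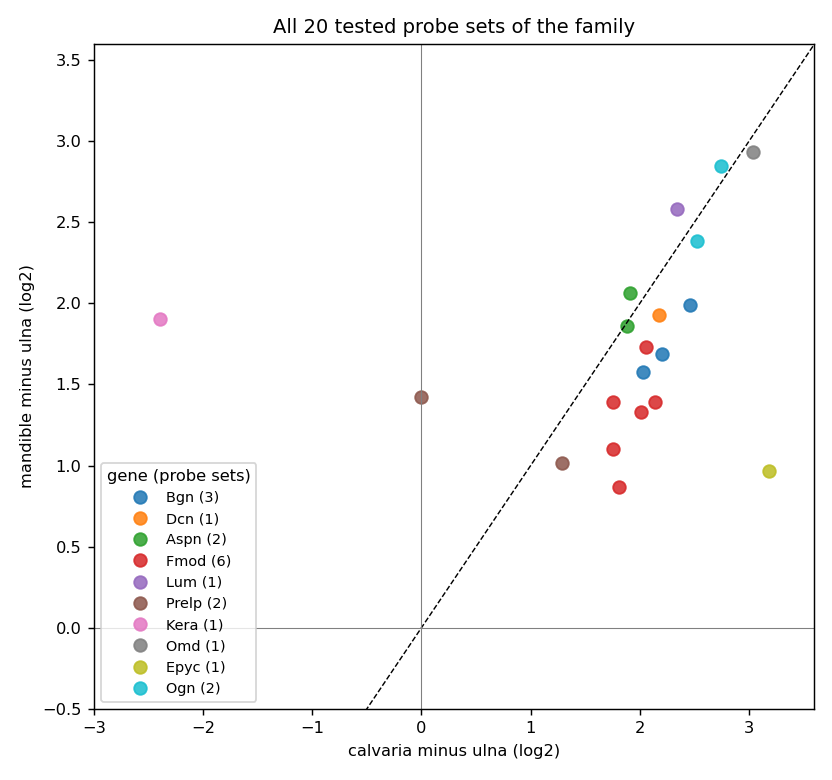
Log2 difference from ulna of the 20 tested probe sets of the family, calvaria on the x axis and mandible on the y axis, coloured by gene, with a dashed line where both are equal; both axes use the same ulna arrays. Kera, Epyc and the second probe set of Prelp lie far from the line, and the 6 Fmod probe sets lie below it.

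Several SLRP genes lie together on the chromosome, in an order taken from the RefSeq annotation of GRCm38.p6. On chromosome 10 the order is Dcn, Lum, Kera and Epyc, so that the gene pair with opposite differences between mandible and calvaria lies beside 2 genes, Dcn and Lum, whose skull bones were within 2-fold of each other. On chromosome 13, Ecm2, Aspn, Omd and Ogn all lie within the span of Cenpp, a gene for a centromere protein. Cenpp was lower in mandible than in ulna (log2 -1.20, adjusted p = 0.00141) and gave -0.47 in calvaria against ulna (adjusted p = 0.149). The log2 differences of Aspn, Omd and Ogn from ulna were 1.86 to 2.93 in mandible and 1.89 to 3.04 in calvaria. Nol8, a nucleolar protein gene on the far side of the cluster, gave -0.62 in mandible (adjusted p = 0.0878) and -0.73 in calvaria (adjusted p = 0.0657). On chromosome 1, Prelp and Fmod lie together, and their neighbour Btg2, an antiproliferative gene, gave -0.91 in mandible and -0.59 in calvaria against ulna, under 2-fold. Bgn lies alone on the X chromosome between Haus7 and Atp2b3, neither of which was called in any comparison.

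**Figure D4:**
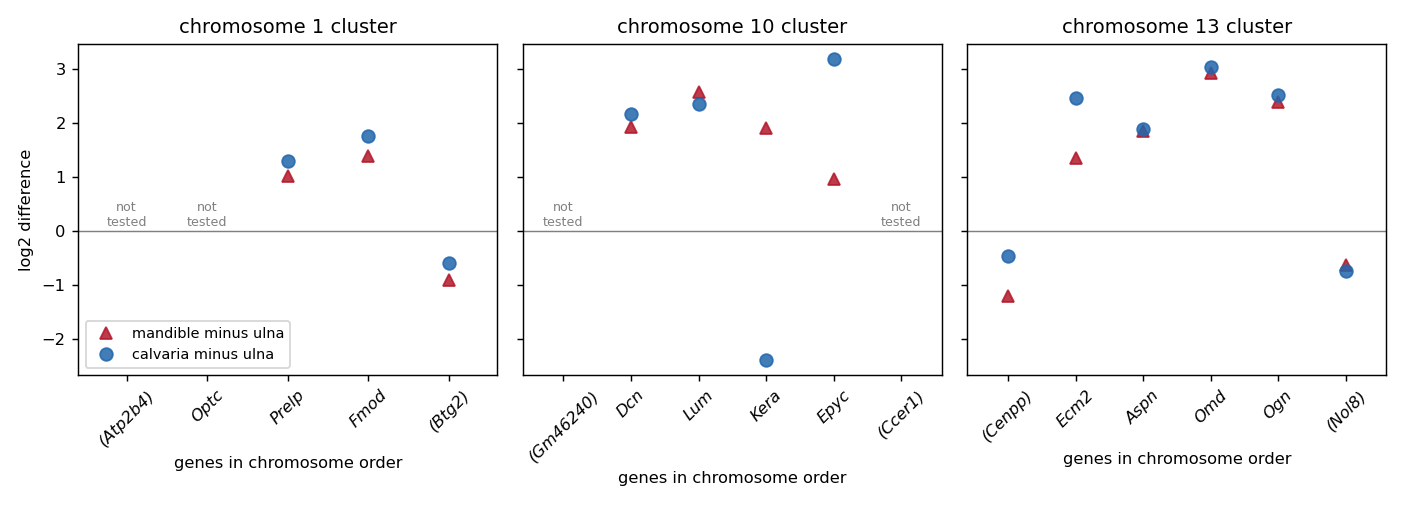
Log2 difference from ulna of SLRP genes and of their nearest neighbours (in brackets) in chromosome order for the clusters on chromosomes 1, 10 and 13, with triangles for mandible and circles for calvaria; genes that were not tested are marked. The tested flanking genes Btg2, Cenpp and Nol8 lie below 0 at both skull sites, beside SLRP genes above 0.

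Few of the other SLRP genes could be tested. Of 7 listed, 5 had a probe set with their symbol and 3 were tested, Chad, Ecm2 and Podn. Chad, the cartilage protein chondroadherin, had signals of 95.7 and 118.9 in mandible, 271.0 and 281.2 in calvaria, and 56.6 and 99.2 in ulna. It was highest in calvaria, with log2 differences of 1.81 in calvaria against ulna (adjusted p = 0.000245) and -1.41 in mandible against calvaria (adjusted p = 0.00177). Ecm2, in the chromosome 13 cluster, gave 28.02 and 29.9 in mandible, 59.2 and 62.2 in calvaria, and 19.9 and 5.54 in ulna. It was called higher in calvaria than in ulna (log2 2.45, adjusted p = 0.00974), a call that was lost without calvaria replicate 1 (adjusted p = 0.0598) or calvaria replicate 2 (0.0708). Ecm2 was above the array median on the 2 calvaria arrays alone and passed the filter through them, so that its differences are not exact. Podn was not called, with a log2 difference of 0.83 in calvaria against ulna (adjusted p = 0.0408).

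With both directions counted together, genes that build and sulphate the chains were called about as often as all genes in mandible and calvaria against ulna. Most of those called were higher than in ulna. For chondroitin and dermatan sulphate, 21 of 26 listed genes were tested, of which 4 were higher and 1 lower in mandible than in ulna (beside 11.0% and 10.9% of all genes), 3 were higher and 0 lower in calvaria than in ulna (beside 8.36% and 4.54%), and 0 were called between mandible and calvaria. At an unadjusted p under 0.05, limma found 9 higher and 5 lower in mandible than in ulna, 10 higher and 1 lower in calvaria than in ulna, and 5 higher and 6 lower in mandible than in calvaria. The median log2 difference of the 21 genes was 0.23 in mandible and 0.28 in calvaria against ulna. Dsel, a relative of the epimerase that turns chondroitin into dermatan sulphate, gave 357.3 and 359.3 in mandible, 227.7 and 197.5 in calvaria, and 75.1 and 87.3 in ulna, with log2 differences from ulna of 2.03 in mandible (adjusted p = 1.06e-06) and 1.31 in calvaria (adjusted p = 4.86e-05). Papss2 and Papss1, which make the sulphate donor PAPS, were higher in mandible than in ulna by log2 1.44 and 1.12. In calvaria, Ust, a uronyl sulphotransferase, was higher than in ulna by log2 1.41 (adjusted p = 0.00246).

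Chst14, the dermatan sulphotransferase, was called higher than in ulna in mandible (log2 1.07) and in calvaria (log2 1.18), and Csgalnact2, which starts the chondroitin chain, was lower in mandible (log2 -1.01). These were named after their values were seen, and both lost a call when single arrays were left out: Chst14 had an adjusted p of 0.144 in mandible without mandible replicate 1 and 0.13 without ulna replicate 1, and 0.137 in calvaria without calvaria replicate 2 and 0.107 without ulna replicate 1. Csgalnact2 was under 2-fold without mandible replicate 1 (log2 -0.94) or ulna replicate 1 (-0.99).

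For keratan sulphate and tyrosine sulphation, 7 of 9 listed genes were tested and 1 was called higher in each comparison, beside 11.0% of all genes in mandible against ulna, 8.36% in calvaria against ulna and 5.14% in mandible against calvaria. Chst1, a sulphotransferase that acts on galactose of keratan sulphate, gave 246.6 and 271.8 in mandible, 74.4 and 84.4 in calvaria, and 40.4 and 22.7 in ulna. The sites did not overlap, with mandible highest. The log2 difference was 2.98 in mandible against ulna (adjusted p = 5.69e-06), 1.31 in calvaria against ulna (adjusted p = 0.00323) and 1.67 in mandible against calvaria (adjusted p = 0.000953). Without ulna replicate 2, calvaria against ulna was under 2-fold (log2 0.90). The Chst1 signal of ulna replicate 2 lay below the median of its array, so that its differences from ulna are not exact.

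Collagens of the fibrils to which SLRPs bind, and 2 that attach to fibrils, Col12a1 and Col14a1, were mostly called higher in the skull bones than in ulna. Of the 11 tested, 9 were called higher in mandible than in ulna and 9 in calvaria than in ulna, beside 11.0% and 8.36% of all genes. The median log2 differences were 2.29 in mandible and 2.14 in calvaria. Of the 9 that form fibrils, 8 were called higher in mandible and 7 in calvaria, with Col5a3 called at neither site and Col2a1 not in calvaria. Col5a2 was among the largest, at 3.08 in mandible and 3.11 in calvaria. Col1a1, the main collagen of bone, gave 12080 and 11704 in mandible, 11842 and 13503 in calvaria, and 1494 and 1420 in ulna. Its log2 difference from ulna was 2.91 in mandible and 3.04 in calvaria, and it was among the genes whose profile over the 6 arrays was nearest to that of Omd. Between mandible and calvaria, Col2a1, the collagen of cartilage, was higher in mandible by log2 3.85 (adjusted p = 1.3e-05).

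Enzymes known to cleave SLRPs or to process procollagen were mostly called higher in skull bone than in ulna. Of 8 tested, 7 were called higher in mandible and 6 in calvaria than in ulna, beside 11.0% and 8.36% of all genes. The median log2 differences were 2.24 in mandible and 2.42 in calvaria. Mmp2, a gelatinase, gave 1604 and 1521 in mandible, 1428 and 1550 in calvaria, and 200.6 and 252.5 in ulna. Pcolce, an enhancer of procollagen cleavage, was higher than in ulna by log2 2.30 in mandible and 2.63 in calvaria. Htra1, a secreted serine protease, was higher than in ulna by log2 2.65 in mandible and 2.46 in calvaria.

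Several further marker lists also differed between the sites. Of all genes, 11.0% were called higher and 10.9% lower in mandible than in ulna, and 8.36% higher and 4.54% lower in calvaria. The 10 skeletal muscle genes were all called lower in calvaria than in ulna (median log2 -3.14), while in mandible against ulna 0 were called higher and 1 was called lower (median -0.33, with 1 higher and 6 lower at an unadjusted p under 0.05 in limma). Of 7 meningeal markers, 4 were called higher in calvaria than in ulna, and their summed signal was 570 to 589 in mandible, 2160 to 2631 in calvaria and 266 to 274 in ulna. Tendon markers were called higher in 4 of 6 genes in mandible and in 3 of 6 in calvaria, with 1 lower in calvaria. Cartilage markers were called higher than in ulna in 6 of 7 genes in mandible and in 3 of 7 in calvaria (1 without calvaria replicate 1 and 2 without mandible replicate 2), and their summed signal was 1189 to 1352 in mandible, 240 to 253 in calvaria and 126 to 150 in ulna. Of 8 fibroblast and periosteum markers, 4 were called higher and 2 lower in mandible than in ulna (median log2 1.27) and 6 higher in calvaria than in ulna (median 1.70). Their summed signal was 12576 to 13107 in mandible, 6238 to 6939 in calvaria and 1937 to 2077 in ulna. In mandible against calvaria, 1 of these genes was called higher and 4 lower (beside 5.14% and 4.01% of all genes). The median log2 difference there was -0.57, against the direction of the sums.

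Fat and red cell markers ran the other way. Of all genes, 10.9% were called lower in mandible than in ulna and 4.54% in calvaria. Both adipocyte genes tested, Adipoq and Fabp4, were called lower than in ulna in mandible (median log2 -1.93) and in calvaria (median -1.74), and their summed signal was 1782 to 1815 in mandible, 2267 to 2300.0 in calvaria and 5556 to 5825 in ulna. All 3 erythroid genes tested were called lower in mandible than in ulna (median log2 -1.54), and 0 were called in calvaria (median -0.67, with 3 lower at an unadjusted p under 0.05 in limma). The erythroid sum was 1402 to 1405 in mandible, 2563 to 2736 in calvaria and 3706 to 3726 in ulna. The part of these tissues, and of muscle, meninges, tendon and cartilage, in the values of the SLRP genes was not tested.

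**Figure D5:**
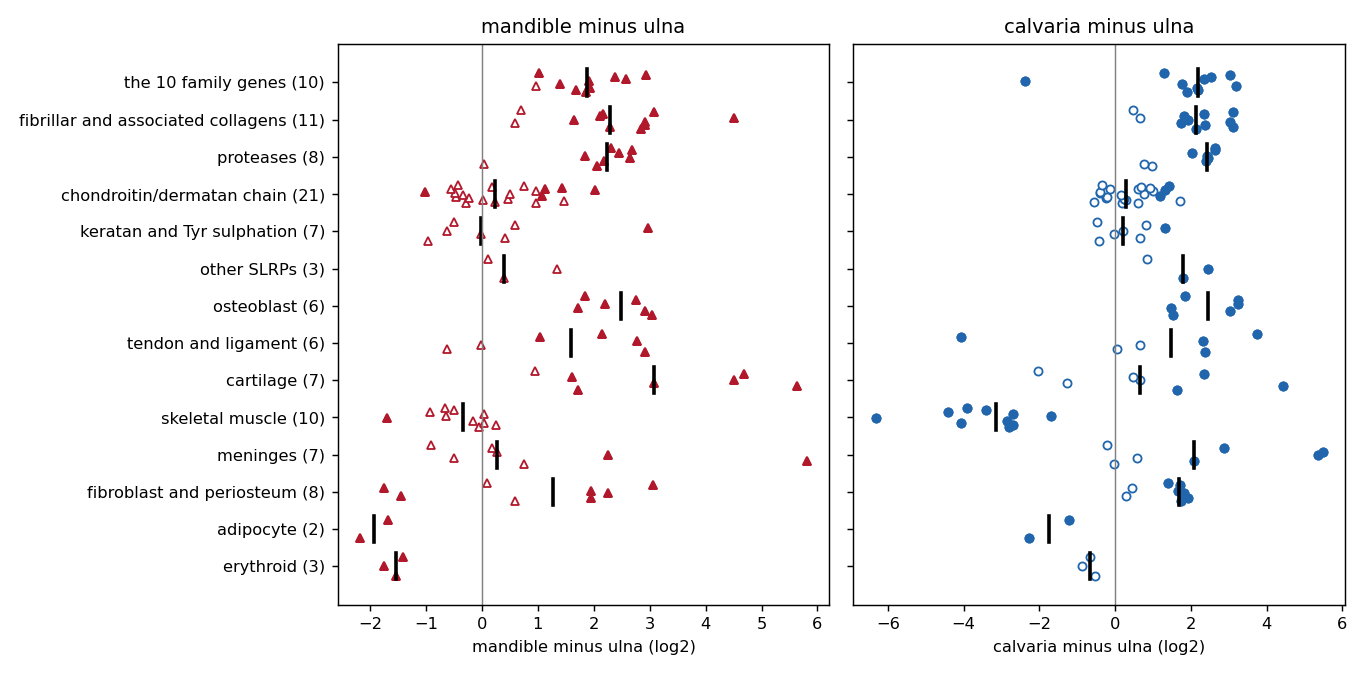
Log2 difference from ulna of every tested gene of the family and of 13 gene lists, mandible on the left and calvaria on the right, with the number of genes tested in brackets, a bar at each median and filled symbols for called genes. The medians of the family (1.88 and 2.19) lie near those of fibrillar and associated collagens (2.29 and 2.14), and skeletal muscle genes lie below 0 in calvaria.

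Within the family, profiles over the 6 arrays, each centred on its own mean log2 value, were nearest for Bgn and Dcn (Euclidean distance 0.306) and farthest for Kera and Epyc (7.27). Of genes outside it, the nearest were Farp2 (0.142) and Cdh2 (0.201) for Bgn, Olfml3 (0.115) and Scara5 (0.18) for Dcn, and Col24a1 (0.174) and Cdh11 (0.258) for Aspn. In class II they were Tmem204 (0.0762) and Ptprd (0.18) for Fmod, Snhg18 (0.182) and Ptgfrn (0.252) for Lum, Ndufa4l2 (0.202) and Fgfr2 (0.229) for Prelp, and Rcn3 (0.277) and Col1a1 (0.308) for Omd. For Ogn they were Bmp1 (0.219) and Chn1 (0.253). The nearest genes lay farther off for Kera, Lce1f (1.10) and Prr16 (1.11), and for Epyc, Nr2f1 (0.876) and Il33 (0.994). These distances describe 6 arrays, were chosen as the smallest among all genes tested, and carry no test.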

How the data were processed

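RNA from bone ground in liquid nitrogen was labelled by a single-cycle protocol and hybridised to 6 Affymetrix mouse GeneChip arrays, 2 for each site. The authors deposited MAS5 signal, an intensity on a linear scale, 1 for each of 45101 probe sets, with a 2% trimmed mean of 100 on every array; its version is not given in the sources used here. Detection calls were not used here.

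Each array was divided by its median and log2 was taken with no offset. The fit took the 25233 probe sets (55.9%) that exceeded the median of their array on 2 or more of the 6 arrays, with 64 controls left out. The array's annotation gave 1 symbol to 34958 probe sets, several to 932 and none to 9211, and symbols were updated through a RefSeq table on GRCm38.p6. A mean for each site was fitted to all 6 arrays with limma (version 3.58.1, R version 4.3.3). Its empirical Bayes step let the variance follow the mean signal (3 residual and 7.67 prior degrees of freedom), and the fit was tested on simulated data. P-values were adjusted by Benjamini-Hochberg over the tested probe sets.

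The members and gene lists were chosen with earlier results of these data known. Named were all 10 genes, chromosome neighbours, and the 2 genes nearest in profile to each member. Of the gene lists, some called genes with large log2 differences were named, with others stated as chosen after their values were seen. Most marker lists are given by counts and sums alone. Whether the array number in the titles pairs the arrays is not stated, and it was not used as a block. Alternatives covered scaling, filter, offset, variance model, arrays in the fit, a replicate block, each array left out, the call rule and averaging of probe sets. Figures were made in Python 3.11.15 with matplotlib 3.10.9.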

Additional observations from a re-analysis of the deposited data

Results flagged for a closer look

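Kera and Epyc differed between the skull bones in the direct comparison of mandible with calvaria in limma. The log2 difference of mandible minus calvaria was 4.30 for Kera (adjusted p = 0.000474) and -2.22 for Epyc (adjusted p = 0.00625).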

How the results depend on the processing

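Of the values of single genes under alternatives, 455 kept their direction and their side of the threshold, 19 lost a call, 2 gained one and 4 changed sign, all 4 of these uncalled. The counts of called genes were 9 in mandible against ulna (8 to 9 with an array left out), 10 in calvaria against ulna (9 to 10) and 2 in mandible against calvaria (1 to 2). That last count was 1 without the variance trend (Kera), 0 without moderation of variances (limma fit, 1 higher and 4 lower at an unadjusted p under 0.05) and 5 with the adjusted p alone, which added Bgn, Dcn and Fmod. Without the trend, Kera missed the threshold in mandible against ulna (adjusted p = 0.0978) and in calvaria against ulna (0.0788), and Epyc in mandible against calvaria (0.058); without moderation, all 3 differences of Kera did (0.226, 0.203 and 0.108 in mandible against calvaria), as did Epyc in calvaria against ulna (0.082) and in mandible against calvaria (0.167). With the offset of 0.5, Kera in calvaria against ulna was -1.11 and remained called. Prelp was under 2-fold in mandible against ulna with the offset of 0.5 (log2 0.90). The difference of Aspn between mandible and calvaria was 0.015 on the values as deposited, 0.063 with the mean of its probe sets, and between -0.15 and 0.10 with an array left out; that of Prelp was 0.57 with the mean of its probe sets. The causes were not tested.

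With a replicate block the counts were 9, 10 and 2, and no call of a member changed. Arrays of the same number deviated together with a correlation of only 0.0117 to 0.0244, which cannot show whether they came from the same mice. Without moderation, 582 genes were called higher and 326 lower in calvaria against ulna, beside 1031 and 560, and 287 and 171 in mandible against calvaria, beside 634 and 494. On the values as deposited, the median of all tested probe sets in mandible against ulna was -0.02, beside -0.13 after division by the array median. Signals below the array median limit, among others, Kera and Thbs4 in calvaria and Epyc in ulna and mandible replicate 2. They also limit Ecm2 in ulna and mandible, and Chst1 in ulna replicate 2. The ulna signals of Kera lay only just above the array median.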

Other observations

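Tnmd, tenomodulin, a membrane glycoprotein of tendon and ligament, had signals of 355.0 and 319.7 in mandible, 991.9 and 994.9 in calvaria, and 60.5 and 81.3 in ulna. It was higher than in ulna by log2 2.15 in mandible and 3.75 in calvaria, and lower in mandible than in calvaria (log2 -1.60, adjusted p = 2.2e-05, limma). Thbs4, a thrombospondin of tendon and muscle, went the other way between the skull bones, with 847.9 and 803.4 in mandible, 17.9 and 30.0 in calvaria, and 345.7 and 400.0 in ulna (log2 5.11 in mandible minus calvaria, adjusted p = 4.2e-08). The calvaria signals of Thbs4 lay below the median of their arrays, so that this difference is not exact. Adamts4, an aggrecanase, was called higher in mandible than in calvaria (log2 1.08), and lost the call without any 1 of the 4 mandible and calvaria arrays (adjusted p 0.0968 to 0.153).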
